A study of Mus musculus with 6 samples.

Results

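CC chemokines are small secreted proteins, named for a pair of cysteines that stand side by side near their amino terminus, and 10 of their genes were followed through the mouse colon: Ccl2, Ccl3, Ccl4, Ccl5, Ccl6, Ccl7, Ccl8, Ccl11, Ccl20 and Ccl28. They were chosen by symbol through the GENCODE M21 annotation, and all 10 were found among the 20533 genes of the deposited table. The mice were C57BL/6 males of wild-type genotype, 7 weeks old, and RNA was taken from the distal part of the colon after 7 days of treatment. The groups were 2 libraries from mice on 2% DSS (dextran sulphate sodium, which damages the lining of the colon when drunk) plus montmorillonite powder (a clay mineral), 2 from mice on 2% DSS alone and 2 from mice on water. The sources used here give no dose for montmorillonite, and nothing in the labels tells whether both libraries of a group are from different mice, so p-values measure only the spread between these libraries.

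CC chemokines bind glycosaminoglycans on endothelium and matrix and signal through G-protein-coupled receptors of the CCR family on leukocytes, which then move towards the source. Ccl2 and Ccl7 draw monocytes through CCR2, Ccl11 draws eosinophils through CCR3, and Ccl3 and Ccl5 act through CCR1 on monocytes and T cells. In the gut, epithelial cells make Ccl20, which attracts CCR6-bearing dendritic cells, B cells and T cells, above all over lymphoid follicles, and Ccl28, which attracts CCR10-bearing plasma cells that make immunoglobulin A.

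Values are normalised read counts, whole reads divided by 1 size factor per library. Depth ran from 3741494 reads (water replicate 2) to 21481594 reads (DSS replicate 1), and a single read was worth 0.335 to 2.27 in these units, least in DSS replicate 1 and most in water replicate 2. The DSS plus montmorillonite libraries lay farther apart than those of the other groups, with a median within-group SD of log2 values of 0.46, against 0.29 in DSS and 0.21 in water. Stratified squamous genes such as Krt5 and Krt13, which the colonic mucosa proper lacks, summed to 112 and 7209 in DSS plus montmorillonite, 159 and 40040 in DSS, and 20.2 and 443 in water. Skeletal muscle genes summed to 3737 and 134 in DSS plus montmorillonite, 81.7 and 2830 in DSS, and 557 and 252 in water. Smooth muscle genes summed to 55662 and 21819 in DSS plus montmorillonite, 15850 and 28383 in DSS, and 29434 and 50185 in water. Colonic epithelial genes, Epcam and Muc2 among them, were read in all 6 libraries. The tissue is a mixture, so that fewer cells of a type and less RNA per cell cannot be told apart.

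Promoters are shown for 3 genes picked by their values. Ccl20 stood above water in all 4 libraries from mice given DSS, and Ccl8 and Ccl28 stood below water in both DSS libraries. Ccl4, Ccl6 and Ccl11 also stood above water in all 4, and Ccl20 did not pass in limma. RefSeq windows (GRCm38.p6) from 250 bases before to 50 bases after the start site were matched for 5 of the 10 genes, Ccl3, Ccl6, Ccl8, Ccl20 and Ccl28. Ccl2, Ccl7 and Ccl11, which rose in DSS, had no window. Shown 5′ to 3′ on the coding strand are those of Ccl20 (chr1:83116516-83116815, plus strand), Ccl8 (chr11:82114935-82115234, plus strand) and Ccl28 (chr13:119623569-119623868, plus strand). Capitals mark matches on either strand to GGGNNNNNCC, the loose form of the site bound by the transcription factor NF-kB, or to TATAAA.
Ccl20: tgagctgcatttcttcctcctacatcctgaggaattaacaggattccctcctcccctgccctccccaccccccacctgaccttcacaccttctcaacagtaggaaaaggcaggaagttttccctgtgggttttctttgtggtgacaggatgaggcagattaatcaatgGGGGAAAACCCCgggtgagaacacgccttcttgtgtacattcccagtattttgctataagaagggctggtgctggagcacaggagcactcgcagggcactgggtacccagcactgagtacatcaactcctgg
Ccl8: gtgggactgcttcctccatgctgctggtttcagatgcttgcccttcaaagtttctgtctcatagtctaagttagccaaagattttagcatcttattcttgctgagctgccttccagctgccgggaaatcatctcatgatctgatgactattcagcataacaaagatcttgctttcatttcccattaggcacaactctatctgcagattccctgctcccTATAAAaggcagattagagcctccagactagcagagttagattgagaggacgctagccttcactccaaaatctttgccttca
Ccl28: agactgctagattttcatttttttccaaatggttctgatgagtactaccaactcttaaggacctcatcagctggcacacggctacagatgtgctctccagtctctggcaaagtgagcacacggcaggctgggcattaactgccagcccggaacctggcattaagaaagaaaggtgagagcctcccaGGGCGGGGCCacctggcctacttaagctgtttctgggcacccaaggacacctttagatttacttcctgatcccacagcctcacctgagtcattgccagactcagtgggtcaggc
In Ccl20 the capitals are overlapping GGGNNNNNCC windows between positions -82 and -71, counted from the start site as 1 with the base before it as -1, and include GGGAAAACCC, which matches on both strands. The window at -80 to -71 also fits the stricter NF-kB consensus on the minus strand, which 4.51% of the 32851 mouse promoter windows of the same length hold, whereas 50.8% hold GGGNNNNNCC. In Ccl28 the match is GGGCGGGGCC at -64 to -55, and the AP-1 motif TGANTCA, held by 7.81% of windows, lies at 21 to 27. In Ccl8 the capitals are TATAAA at -32 to -27, a motif that 13.6% of windows hold. Neither Ccl3, which rose in DSS, nor Ccl6 matched any of these motifs, and none of the 5 windows matched TTCNNNGAA, held by 8.30%. These matches describe letters in the window and not binding, and a link between them and the levels was not tested.

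**Figure D1:**
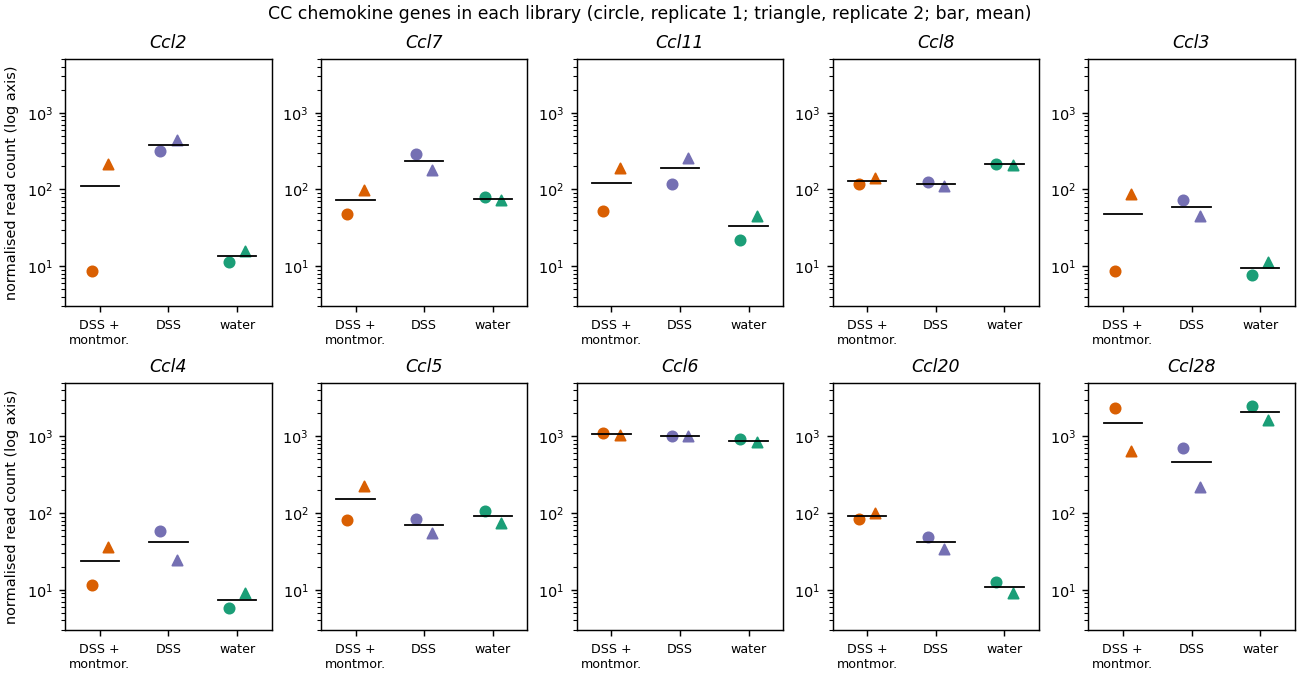
Normalised read count (log axis) of each of the 10 CC chemokine genes in DSS plus montmorillonite, DSS and water libraries, with circles for replicate 1, triangles for replicate 2 and bars for group means. Ccl2 stands at 8.63 and 216 in DSS plus montmorillonite, 316 and 435 in DSS, and 11.5 and 15.9 in water, while Ccl6 lies between 841 and 1116 in all 6 libraries.

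The comparison of DSS with water asks how the injured colon differed from the untreated one. Ccl2, Ccl7, Ccl11 and Ccl3 rose in DSS, Ccl28 fell, and Ccl4, Ccl5, Ccl6, Ccl8 and Ccl20 did not pass. Thus 4 of the 10 genes rose and 1 fell at a limma adjusted p below 0.05 in a fit of the 4 libraries, where over all 20307 genes tested 15.1% passed, 7.9% higher and 7.18% lower. That is 1605 genes higher and 1459 lower, where scaling by library size only gave 2195 and 886, and 6 of the 10 genes higher and 0 lower. The median log2 fold change was 1.70 over the 10 genes and 0.10 over all genes tested. All 10 genes passed the filter on low values, and in 7 of them both DSS libraries lay above both water libraries and in 2 below, where this held for 33.9% and 28.5% of all genes. With all 6 libraries in 1 limma fit none of the 10 genes passed (adjusted p from 0.141 to 0.685), nor did any other gene, although 8 of the 10 genes and 4662 of all genes had an unadjusted p under 0.05. On the reads recovered from the values, edgeR called 6 of the 10 genes higher and 1 lower (8.2% and 6.53% of all genes, 14.7% together), and DESeq2 6 higher and 2 lower (12.8% and 11.3%, 24.1% together). With 1 library left out, the log2 difference of Ccl2 was 4.90 without DSS replicate 1 and 4.44 without DSS replicate 2. It was 4.46 without water replicate 1 and 4.89 without water replicate 2.

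In the Ccl2 neighbourhood on chromosome 11, Ccl2, Ccl7 and Ccl11 rose in DSS, while Ccl8 was lower in both DSS libraries without passing. Ccl2 (ENSMUSG00000035385.5, GRCm38 chromosome 11, 82035571 to 82037453), the main monocyte chemoattractant, had normalised read counts of 8.63 and 216 in DSS plus montmorillonite, 316 and 435 in DSS, and 11.5 and 15.9 in water (replicates 1 and 2 of each group). Both DSS libraries were high and both water libraries low. Of the DSS plus montmorillonite libraries, replicate 1 was about as low as water and replicate 2 lay between water and DSS. Replicate 1 rested on 6 reads, against 12 and 7 in water replicates 1 and 2, too few to tell it from water. In DSS against water Ccl2 was 25.5-fold higher (log2 4.67 ± 0.34 SE, limma adjusted p = 0.00362), the largest difference of the 10 genes and position 104 of 20307 when all genes were ordered from the largest rise. Over pooled reads, 1849 in DSS and 19 in water, the ratio was 28.4, with an exact 95% counting interval of 18.2 to 47.3. Intervals of pooled reads cover counting error only. The annotated gene Gm17268 overlaps Ccl2 on the opposite strand, and whether reads were counted by strand is not given in the sources used here.

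Ccl7 (82045712 to 82047525), also a CCR2 ligand, had 47.5 and 99.9 in DSS plus montmorillonite, 286 and 178 in DSS, and 79.7 and 72.8 in water. It was 2.94-fold higher in DSS (log2 1.56 ± 0.31 SE, limma adjusted p = 0.0271) with no overlap between DSS and water. Ccl11 (82057823 to 82062955), eotaxin, had 51.8 and 191 in DSS plus montmorillonite, 118 and 258 in DSS, and 22.1 and 45.5 in water. All 4 libraries from mice given DSS exceeded both water libraries, and in DSS alone Ccl11 was 5.36-fold higher (log2 2.42 ± 0.52 SE, adjusted p = 0.0337). Without DSS replicate 2 the log2 difference of Ccl11 was 1.86 and without DSS replicate 1 it was 2.98.

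Ccl8 (82115185 to 82116799), which in mice signals through CCR8, had a lower level in DSS than in water, with little spread between replicates. It had 117 and 140 in DSS plus montmorillonite, 124 and 113 in DSS, and 212 and 212 in water. The 4 libraries from mice given DSS, with or without montmorillonite, were all below both water libraries. In DSS the level was 0.560 of that in water (log2 -0.84 ± 0.22 SE, 95% interval -1.39 to -0.29, limma adjusted p = 0.0592), which did not pass, though DESeq2 put the adjusted p at 0.0379. Between Ccl11 and Ccl8 lies Ccl12, a further CCR2 ligand of the mouse, which had 18.7 and 5.45 in DSS plus montmorillonite, 31.8 and 12.5 in DSS, and 12.5 and 6.82 in water and did not pass (log2 1.03, adjusted p = 0.332). These 5 genes span 81.2 kb on the plus strand.

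**Figure D2:**
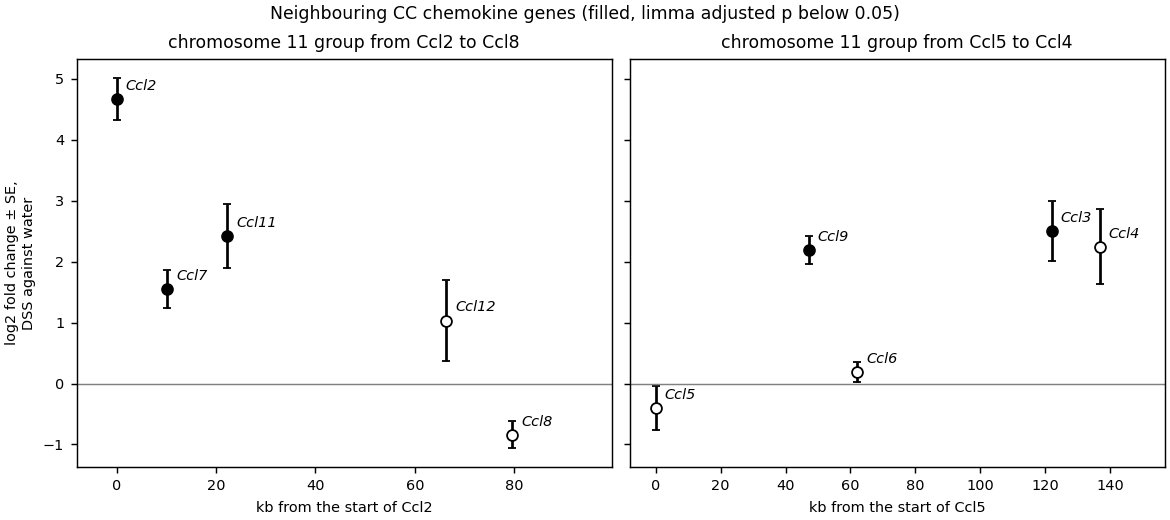
log2 fold change ± SE in DSS against water for the 5 CC chemokine genes from Ccl2 to Ccl8 and the 5 from Ccl5 to Ccl4 on chromosome 11, against distance in kb from the start of Ccl2 and of Ccl5, with filled points for a limma adjusted p below 0.05. The values run from 4.67 for Ccl2 to -0.84 for Ccl8 over the 81.2 kb of the Ccl2 group, and in the Ccl5 group the filled points are Ccl9 (2.19) and Ccl3 (2.50).

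The other chromosome 11 group holds Ccl5, Ccl9, Ccl6, Ccl3 and Ccl4 in that order over 138.9 kb. Ccl3 (83647844 to 83649355), macrophage inflammatory protein 1 alpha, had 8.63 and 87.2 in DSS plus montmorillonite, 74.0 and 45.1 in DSS, and 7.68 and 11.4 in water. Its DSS libraries lay above both water libraries, 5.67-fold on average (log2 2.50 ± 0.50 SE, limma adjusted p = 0.0272). The water values rested on 13 reads in all, against 315 in DSS, so that pooled reads gave a ratio of 7.08 (95% counting interval 4.08 to 13.4). Ccl4 (83662584 to 83664683), its partner macrophage inflammatory protein 1 beta, had 11.5 and 36.3 in DSS plus montmorillonite, 59.0 and 24.4 in DSS, and 5.76 and 9.10 in water. The water libraries were again the lowest, but the DSS libraries differed 2.41-fold from each other and Ccl4 did not pass (log2 2.24 ± 0.61 SE, adjusted p = 0.0631), with edgeR at 0.0459.

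Ccl5 (83525778 to 83530518), a T cell and natural killer cell product also called RANTES, had 82.0 and 223 in DSS plus montmorillonite, 82.7 and 55.6 in DSS, and 108 and 75.0 in water. Its DSS and water libraries overlapped (log2 -0.40 ± 0.36 SE, 95% interval -1.28 to 0.48, limma adjusted p = 0.488). Ccl6 (83587882 to 83593087), a mouse CCR1 ligand made by macrophages, had 1116 and 1027 in DSS plus montmorillonite, 1005 and 997 in DSS, and 919 and 841 in water, and was the steadiest of the 10 genes. Its difference in DSS was 0.19 ± 0.16 SE on the log2 scale (95% interval -0.20 to 0.58, adjusted p = 0.462). The annotated transcript E230016K23Rik overlaps Ccl6 on the opposite strand and had 0 to 9.10 in any library. Their neighbour Ccl9, likewise a CCR1 ligand, rose 4.56-fold (log2 2.19 ± 0.22 SE, adjusted p = 0.00691), with 99.2 and 451 in DSS plus montmorillonite, 440 and 424 in DSS, and 105 and 84.1 in water.

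The epithelial chemokines Ccl20 and Ccl28 lie outside chromosome 11; Ccl28 fell in DSS, and Ccl20 was higher in both DSS libraries than in water without passing. Ccl20 (ENSMUSG00000026166.14, chromosome 1, 83116766 to 83119167) had 84.9 and 99.9 in DSS plus montmorillonite, 49.2 and 34.0 in DSS, and 12.5 and 9.10 in water. The 3 groups were ordered without overlap, DSS plus montmorillonite highest and water lowest. In DSS it was 3.60-fold above water (log2 1.85 ± 0.48 SE), which did not pass in limma (adjusted p = 0.0556), while edgeR gave an adjusted p of 0.0485 and DESeq2 of 0.0367. The water values rested on 17 reads and the DSS values on 218, so that pooled reads gave a ratio of 3.75 (95% counting interval 2.29 to 6.55).

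Ccl28 (ENSMUSG00000074715.3, chromosome 13, 119623819 to 119654359) had 2343 and 647 in DSS plus montmorillonite, 706 and 221 in DSS, and 2496 and 1608 in water. Both DSS libraries were low and both water libraries high, with DSS plus montmorillonite replicate 1 at the water level and replicate 2 between the DSS libraries. In DSS it fell to 0.198 of water (log2 -2.34 ± 0.54 SE, limma adjusted p = 0.0401), the largest drop of the 10 genes and position 309 of 20307 from the largest fall. The log2 difference was -1.50 without DSS replicate 2 and -3.17 without DSS replicate 1. With scaling by library size only it was -2.10, which did not pass (limma adjusted p = 0.0518). General epithelial genes fell with it. Of 10 such genes 9 fell in DSS, among them Slc26a3, a chloride transporter of colonocytes, and Krt20, a keratin of the surface epithelium, and Muc2, the main secreted mucin, did not pass. They summed to 197717 and 110199 in DSS plus montmorillonite, 73305 and 50149 in DSS, and 173134 and 176240 in water, and the part of this in the level of Ccl28 was not tested.

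**Figure D3:**
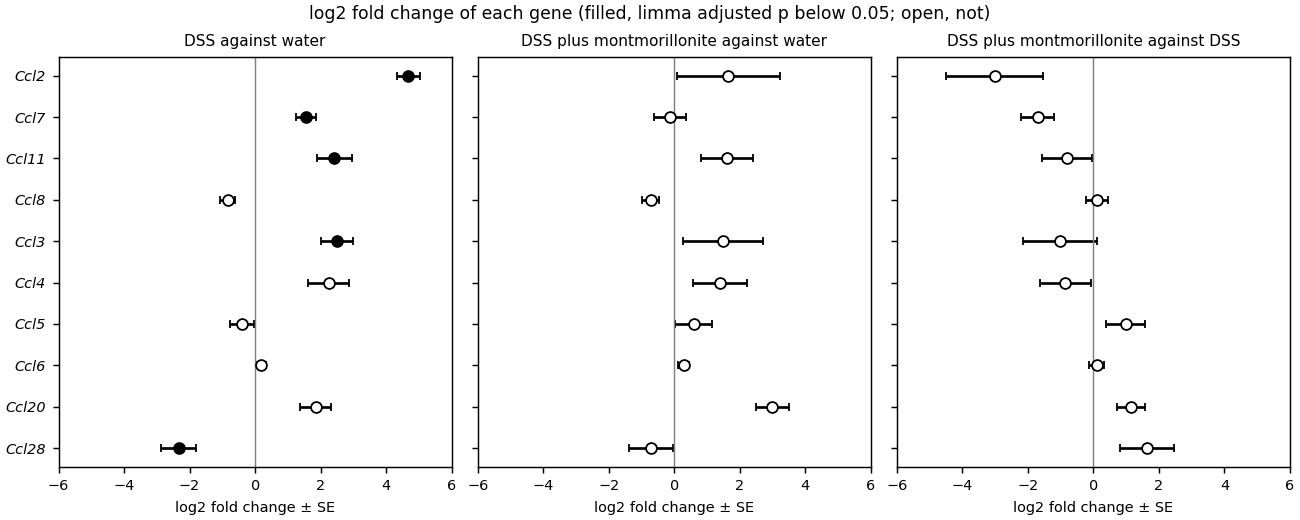
log2 fold change ± SE of each of the 10 CC chemokine genes in DSS against water, DSS plus montmorillonite against water and DSS plus montmorillonite against DSS, from limma fits of the 4 libraries compared, with filled points for an adjusted p below 0.05. Filled points occur in DSS against water, for Ccl2, Ccl7, Ccl11, Ccl3 and Ccl28, and error bars are widest where DSS plus montmorillonite enters, up to 1.58 for Ccl2.

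Per kilobase of annotated exon, the shares of Ccl2 and Ccl28 in the CC chemokine transcripts differed between DSS and water. In DSS plus montmorillonite the shares of both lay far apart between replicates. The summed level of the 10 genes per kb was 1622 and 1942 in DSS plus montmorillonite, 1998 and 1842 in DSS, and 1712 and 1475 in water. Ccl6 had the highest level per kb in every library except water replicate 1, where Ccl28 stood slightly above it (515 and 512). Ccl2 made up 0.468% and 9.78% of the summed level in DSS plus montmorillonite, 13.9% and 20.7% in DSS, and 0.591% and 0.949% in water. Ccl28 made up 29.8% and 6.87% in DSS plus montmorillonite, 7.29% and 2.48% in DSS, and 30.1% and 22.5% in water. In water the order of mean level per kb was Ccl6 (490), Ccl28 (424), Ccl8 (415), Ccl7 (95.2), Ccl5 (95.1), Ccl11 (31.2), Ccl3 (12.4), Ccl2 (12.1), Ccl4 (11.3) and Ccl20 (7.59). Of neighbours in this order, the water libraries were separated between Ccl8 and Ccl7, between Ccl5 and Ccl11 and between Ccl11 and Ccl3, and overlapped elsewhere. In DSS it was Ccl6 (558), Ccl2 (330), Ccl7 (290), Ccl8 (232), Ccl11 (174), Ccl28 (95.7), Ccl3 (77.7), Ccl5 (72.1), Ccl4 (63.2) and Ccl20 (29.3). There Ccl6 was separated from Ccl2 and Ccl20 from Ccl4, and all other neighbours overlapped. In DSS plus montmorillonite it was Ccl6 (597), Ccl28 (309), Ccl8 (251), Ccl5 (159), Ccl11 (112), Ccl2 (98.8), Ccl7 (92.0), Ccl20 (65.0), Ccl3 (62.6) and Ccl4 (36.2), and apart from Ccl6 all neighbours overlapped.

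**Figure D4:**
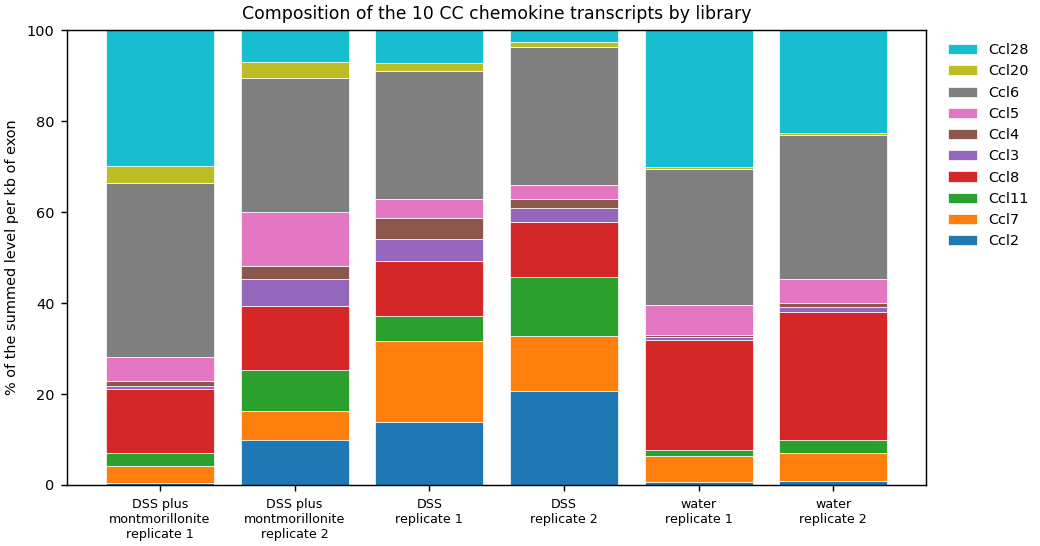
Share of each gene in the summed level per kb of exon of the 10 CC chemokine genes (vertical axis, %), one bar for each library of DSS plus montmorillonite, DSS and water. Ccl2, Ccl7 and Ccl11 take more of the bar in DSS and Ccl28 and Ccl8 less than in water, and the DSS plus montmorillonite libraries differ, with Ccl2 at 0.468% in replicate 1 and 9.78% in replicate 2.

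Receptors for these ligands were read in the same libraries. Of 10 CC receptor genes 9 were tested in DSS against water, 4 rose, none fell and 5 did not pass, with a median log2 fold change of 1.50, against 0.10 over all genes. In 9 of the 10, the untested Ccr3 included, both DSS libraries lay above both water libraries, as in 33.9% of all genes tested. Ccr1, the receptor of Ccl3, Ccl5, Ccl6 and Ccl9 on myeloid cells, had 51.8 and 456 in DSS plus montmorillonite, 457 and 376 in DSS, and 93.1 and 86.4 in water, a 4.58-fold rise in DSS (log2 2.20, limma adjusted p = 0.00691). Ccr2, the monocyte receptor of Ccl2 and Ccl7, had 135 and 371 in DSS plus montmorillonite, 735 and 367 in DSS, and 205 and 196 in water, a 2.58-fold rise (log2 1.37, adjusted p = 0.0493). Ligand and receptor were thus both higher in DSS for the CCR2 pair, and both low in DSS plus montmorillonite replicate 1.

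Ccr6, the receptor of Ccl20 on B cells, T cells and dendritic cells, had 5.75 and 25.4 in DSS plus montmorillonite, 104 and 59.0 in DSS, and 9.60 and 2.27 in water. It rose 13.5-fold in DSS (log2 3.75, limma adjusted p = 0.0239), and its DSS plus montmorillonite libraries lay below both DSS libraries, the opposite order to Ccl20. The Ccr6 values rested on 18 reads in DSS plus montmorillonite, 433 in DSS and 11 in water. Genes of B cells and follicles moved beside it. Of 7 such genes 6 rose in DSS, among them Cd79a of the B cell receptor complex, and they summed to 201 and 1423 in DSS plus montmorillonite, 4827 and 1934 in DSS, and 317 and 446 in water. The part of this in the level of Ccr6 was not tested. Ccr7, which guides dendritic cells and naive T cells to Ccl19 and Ccl21, rose 9.13-fold in DSS (log2 3.19, limma adjusted p = 0.0129), with 14.4 and 173 in DSS plus montmorillonite, 99.8 and 73.8 in DSS, and 10.6 and 6.82 in water. Its water values rested on 14 reads.

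Ccr10, the receptor of Ccl28 on plasma cells, had 18.7 and 43.6 in DSS plus montmorillonite, 34.2 and 42.7 in DSS, and 34.6 and 34.1 in water, with a log2 difference in DSS of 0.15 (95% interval -0.79 to 1.09, limma adjusted p = 0.818). Plasma cell genes were read in the same libraries. Of 7 such genes 4 rose in DSS, among them Igha, the immunoglobulin A constant region, and Mzb1, and they summed to 47414 and 190862 in DSS plus montmorillonite, 170552 and 154066 in DSS, and 40993 and 39590 in water. The part of this in the level of Ccr10 was not tested. Ccr3, the eosinophil receptor of Ccl11, had 0 reads in DSS plus montmorillonite, 13 in DSS and 0 in water and fell under the filter. Of 10 eosinophil and mast cell genes measured, Prg2 and Il5ra rose, none fell and 8 did not pass, the eosinophil lectin gene Siglecf among them (6.42 in DSS and 11.4 in water on average).

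**Figure D5:**
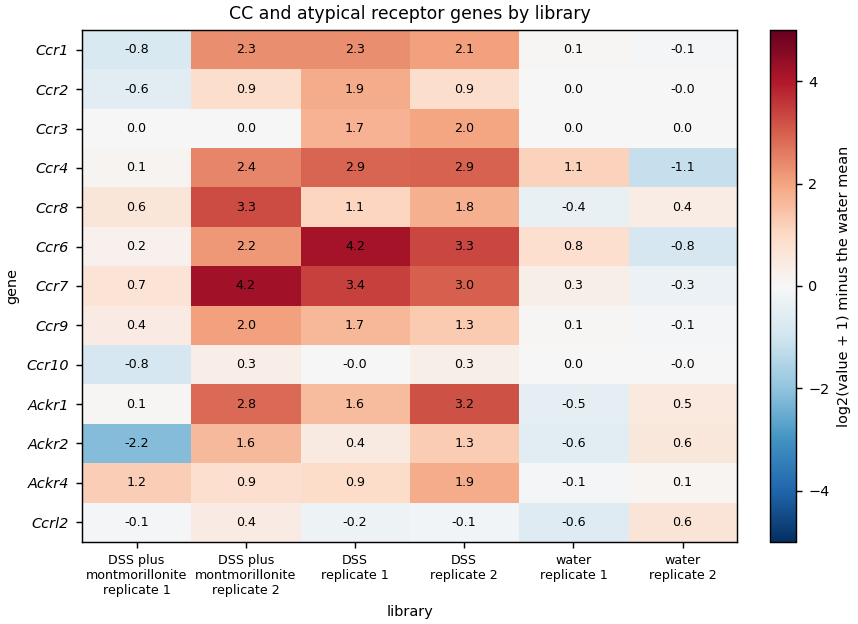
log2(normalised read count + 1) minus the water mean for 9 CC receptor and 4 atypical receptor genes (rows) in each library of DSS plus montmorillonite, DSS and water (columns), red above and blue below the water mean. All CC receptor genes shown except Ccr10 are above water in both DSS libraries. Of the CC receptor genes, Ccr1, Ccr2 and Ccr10 are below the water mean in DSS plus montmorillonite replicate 1, at -0.8, -0.6 and -0.8.

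Among 14 further CC ligand genes 10 were measured, of which Ccl9 and Ccl21a rose in DSS, none fell and 8 did not pass, with a median log2 difference of 1.17. Ccl21a, a ligand of CCR7 made by lymphatic endothelium and lymphoid stroma, had 90.6 and 182 in DSS plus montmorillonite, 137 and 171 in DSS, and 60.5 and 61.4 in water (2.49-fold in DSS, limma adjusted p = 0.0318). Mouse Ccl21, Ccl19 and Ccl27 genes have near-identical copies, so the reads of Ccl21a are uncertain in origin. Ccl25, the small-intestinal ligand of CCR9, had 46.0 to 68.3 in all 6 libraries. None of 5 atypical receptor and ligand-processing genes passed. Ackr1, which binds chemokines on venules, came nearest, with 33.1 and 233 in DSS plus montmorillonite, 97.8 and 298 in DSS, and 22.1 and 45.5 in water (adjusted p = 0.0543). Of 12 genes that act downstream of the receptors 5 rose in DSS and none fell, among them the leukocyte genes Rac2 (4.32-fold) and Dock2 (3.79-fold) that drive cell movement, and the kinase gene Pik3cg (3.45-fold).

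Markers of the cells that make or answer these chemokines differed between the same libraries. Of 16 monocyte and macrophage genes 9 rose in DSS and none fell, and they summed to 6244 and 16425 in DSS plus montmorillonite, 13804 and 13299 in DSS, and 6589 and 6008 in water. Those that rose included Itgam, an integrin of myeloid cells, and Ly6c2 of recruited monocytes, whereas C1qa and Cx3cr1 of resident macrophages did not pass. Of 10 neutrophil genes 9 rose and Cd177 fell. They summed to 1004 and 8834 in DSS plus montmorillonite, 4062 and 8985 in DSS, and 1298 and 1021 in water. Mmp8 and Retnlg had no read in water. Such a sum follows its highest genes and is no measure of neutrophils. The median log2 difference of the 10 genes in DSS was 6.86. By library their median stood 0.52 and 6.66 above the water mean (log2) in DSS plus montmorillonite, and 6.45 and 7.38 in DSS. The monocyte and macrophage sum was near water in DSS plus montmorillonite replicate 1 and far above it in replicate 2. Neutrophil genes differed among themselves in replicate 1, where S100a9 and S100a8 stood 3.59 and 3.26 above the water mean on the log2 scale and Mmp9 0.12. The water libraries of S100a9 and S100a8 themselves stood at -1.24 and 1.24 around that mean, with very few reads, so these heights are uncertain. In both DSS plus montmorillonite libraries 5 of the 10 neutrophil genes lay above both water libraries and 1 below. Over all genes this held for 21.5% and 19.2%. Of 8 fibroblast genes 5 rose and of 8 endothelial genes 6, none falling in either. Of 12 T and natural killer cell genes, to which Ccl5 belongs by its main source, Cd4 and Trdc rose, Gzma fell and 9 did not pass. The part of these cells in the chemokine levels was not tested.

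Set against water, the DSS plus montmorillonite libraries show which chemokines still differed from the untreated colon when clay was given with DSS. Ccl20 stood out in level, and no gene passed. With 84.9 and 99.9 against 12.5 and 9.10 in water, Ccl20 was 7.98-fold higher (SE 0.49 and 95% interval 1.69 to 4.30 on the log2 scale), position 148 of 20307 from the largest rise. Its limma adjusted p was 0.629 (0.00237 unadjusted), that of edgeR was 0.350, and DESeq2 called it at 0.00972. The pooled ratio of reads, 114 against 17, was 7.98 (95% counting interval 4.77 to 14.2). Limma called 0 of the 10 genes and 0 of all genes (0%), with 2 of the 10 and 1576 of all genes at an unadjusted p under 0.05, edgeR called 0 as well, and DESeq2 called 1 of the 10, higher, and 1.32% of all genes, 0.574% higher and 0.746% lower.

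Ccl20 kept its high level in DSS plus montmorillonite replicate 1, where most other members were near water. In that library Ccl2 (8.63, 6 reads), Ccl3 (8.63, 6 reads) and Ccl4 (11.5, 8 reads) stood in or near the water range, and Ccl28 (2343) lay within it. The follicle-associated epithelium is a known site of Ccl20 expression. The 5 genes listed for it summed to 1236 and 4922 in DSS plus montmorillonite, 4668 and 5591 in DSS, and 1094 and 1492 in water. In this mixed tissue their reads cannot be assigned to that epithelium, and 6 of 7 B cell and follicle genes rose in DSS too. All 5 of these genes rose in DSS against water, among them Spib and Marcksl1. The part of the cell mixture in the level of Ccl20 was not tested.

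Ccl8 lay below water in both libraries, at 117 and 140 in DSS plus montmorillonite and 212 and 212 in water (log2 -0.73 ± 0.25 SE, limma adjusted p = 0.629, 0.0379 unadjusted). Ccl4, Ccl6 and Ccl11 lay above water in both libraries, by 1.39, 0.28 and 1.62 on the log2 scale, so that 4 of the 10 genes were higher and 1 lower without overlap, where 21.5% and 19.2% of all genes were. The remaining 5 overlapped with water. Without replicate 2 the log2 differences of Ccl2, Ccl3, Ccl5 and Ccl28 were -0.60, -0.11, -0.13 and 0.23, against 1.65, 1.49, 0.59 and -0.70 with both libraries. Without replicate 1 that of Ccl7 was 0.39, against -0.14 with both.

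Set against DSS alone, the same libraries bear on the addition of clay, and here too no gene passed. Ccl2 and Ccl7 were lower without overlap, and Ccl20 and Ccl6 higher, so that 2 of the 10 genes lay on each side where 20.6% of all genes were lower and 19.4% higher. Ccl7, with 47.5 and 99.9 against 286 and 178 in DSS, stood at 0.308 of the DSS level (log2 -1.70 ± 0.51 SE, 95% interval -3.01 to -0.39, limma adjusted p = 0.691, 0.0209 unadjusted). Ccl20, with 84.9 and 99.9 against 49.2 and 34.0, was 2.22-fold above DSS (log2 1.15 ± 0.42 SE, 95% interval 0.06 to 2.23, adjusted p = 0.691, 0.0416 unadjusted). Ccl2, with 8.63 and 216 against 316 and 435, differed by -3.02 ± 1.47 SE (adjusted p = 0.704).

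No cell marker gene passed between the same libraries, and the lists differed in how many genes lay apart without overlap. All 10 epithelial genes were higher in both DSS plus montmorillonite libraries than in both DSS libraries, with a median log2 difference of 1.16, against -0.07 over all genes. All 7 B cell and follicle genes were lower without overlap (median -2.69), as were 4 of 8 fibroblast genes (median -0.91) and 4 of 8 endothelial genes (median -1.17). Of 16 monocyte and macrophage genes 2 were lower without overlap and none higher, a smaller share than over all genes. Of 10 neutrophil genes 2 were lower and 1 higher, and of 12 T and natural killer cell genes 1 was lower. Of 7 smooth muscle genes none was lower or higher without overlap. Over all genes 20.6% were lower and 19.4% higher without overlap. The part of these cells in the differences of Ccl20, Ccl28, Ccl2 and Ccl7 was not tested.

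These differences rested on a group whose libraries were far apart. Ccl28 had 2343 and 647 in DSS plus montmorillonite against 706 and 221 in DSS, a log2 difference of 1.64 ± 0.83 SE with overlapping libraries (limma adjusted p = 0.704). Ccl8 differed by 0.11 ± 0.32 SE (95% interval -0.73 to 0.95) and Ccl6 by 0.10 ± 0.23 SE. Without DSS plus montmorillonite replicate 2 the log2 difference of Ccl2 was -5.27, resting on 6 reads in replicate 1. Without replicate 1 it was -0.77. Limma called 0 of the 10 genes and 0% of all genes with both libraries, with 2 of the 10 and 1444 of all genes at an unadjusted p under 0.05. EdgeR also called 0, and DESeq2 called 0 of the 10 and 0.575% of all genes, 0.409% higher and 0.166% lower. This comparison and DSS against water share the DSS libraries, so their values are not independent.

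Across the 6 libraries, the genes closest in pattern to each member were taken from all genes compared. Pearson correlations of log2(value + 1) over 6 libraries were computed against 12927 protein-coding genes whose mean value reached 20, and with so few points they serve as description only. Ccl2 was closest to Sgk3, Clec1a and Ccdc50 (r = 0.999, 0.998 and 0.998), and Ccl11 to Itgb3 (0.999). Ccl3 was closest to Krt84, Zeb2 and Marcksl1 (0.997, 0.995 and 0.995). Ccl20 was closest to Phf1, Pycr1 and Gdap2 (0.993, 0.992 and 0.984), Ccl8 to Psmb4, Apol6 and Tmem64 (0.993, 0.99 and 0.981), and Ccl28 to Prelid3b, Erlin2 and Bfsp1 (0.999, 0.998 and 0.998). For the other members the highest r was 0.993 for Ccl7 with Tmem158, 0.99 for Ccl6 with Rictor, 0.989 for Ccl4 with Fam49a and 0.977 for Ccl5 with Azin1. The genes compared share the depth and the cell mixture of these 6 libraries.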

How the data were processed

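RNA was sequenced from 6 mouse colon libraries. The authors deposited 1 signal value per gene and library. Divided by the lowest non-zero value of their library, 100% came out whole within 0.01 read, so each value is a read count divided by 1 size factor per library, equal to the size factors of DESeq2. The submitters' processing notes name the builds mm10 and GRCm38. The sources used here name no aligner, counter or strand setting. Every gene of the table had at least 10 reads over the 6 libraries. Of 20533 identifiers 20500 matched GENCODE M21. Groups came from sample titles.

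Log2(value + 1) was tested with limma 3.58.1 under R 4.3.3 (mean-variance trend on) in 20307 genes whose mean value reached 1. Each fit held the 4 libraries of its comparison and left 2 residual degrees of freedom. Tests were two-sided, with Benjamini-Hochberg adjustment over all genes and a threshold of 0.05. Folds are on that scale and understate the change of low genes. An exact permutation test of 2 against 2 libraries could reach p = 0.333 at best, so none was run. Alternatives were a fit of 6 libraries, edgeR 4.0.16 and DESeq2 1.42.0 on the recovered reads, other pseudocounts, filters and scaling, thinned reads (1 draw), a replicate block and leaving out each library. The fit was tested on simulated data.

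The members, the lists, the tests and the choice of 4 libraries over 6 were made with earlier results of these data known, including that the fit of 6 called no gene. The named genes are all members, receptors and further ligands with their values, up to 3 genes per list that passed, taken in order of p, and for likeness the 3 genes with the highest correlation. Other list genes named, such as Mmp9, S100a8, S100a9, Krt5, Krt13, Muc2, C1qa, Cx3cr1, Siglecf and Cd177, were chosen after their values were seen. Some genes that this rule takes in are not reported here.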

Additional observations from a re-analysis of the deposited data

How the results depend on the processing

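For DSS against water, limma on the 4 libraries called 3064 genes and 5 of the 10 CC chemokine genes. The fit of all 6 libraries called 0 and 0, and reads thinned to the shallowest library 1599 and 2. DESeq2 called 8 of the 10 genes, as did a minimum mean value of 10, under which fewer genes were tested. Leaving out 1 library gave 0 to 317 genes and 0 to 1 members, the lone library left in a group being assumed to vary like the others. Scaling by library size only gave 2195 genes higher and 886 lower, against 1605 and 1459, and moved the median log2 difference of all genes to 0.33 from 0.10. That scaling also put Ccl6 and Ccl8 at -0.16 and -0.15 (log2) in DSS plus montmorillonite against DSS, where the authors' scaling gave 0.10 and 0.11. In DSS against water no member changed direction under any alternative.

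In DSS plus montmorillonite against water DESeq2 called 200 genes and 1 of the 10, Ccl20. Against DSS it called 76 genes and none of the 10, and leaving out 1 library gave 0 to 285 genes and 0 to 1 members. Over the fits that leave out 1 library, log2 differences from water ranged from -0.60 to 3.90 for Ccl2, -0.11 to 3.09 for Ccl3, -0.13 to 1.31 for Ccl5, -0.67 to 0.39 for Ccl7 and -1.63 to 0.23 for Ccl28. Differences from DSS ranged from -2.61 to 0.59 for Ccl3, -0.020 to 0.24 for Ccl8 and -1.73 to 0.13 for Ccl11. Apart from the leave-out fits and those named, the cause of these moves was not tested.

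Replicate numbers are shared by the groups, but nothing in the labels pairs the libraries. With the replicate number as a block limma called 5084 genes and 8 of the 10 in DSS against water and 0 in the other comparisons. Deviations of same-numbered libraries from their group means correlated across genes at 0.30 between DSS plus montmorillonite and DSS, 0.08 between DSS plus montmorillonite and water, and 0.09 between DSS and water. Depth limits Ccl2, Ccl3, Ccl4 and Ccl20 in water most, with 10 to 19 reads each. In DSS plus montmorillonite replicate 1, Ccl2, Ccl3 and Ccl4 had 6, 6 and 8 reads.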
